A study of Homo sapiens with 39 samples.

Results

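The guides described here are the 100 that took the largest share of sequencing reads when A375 cells without MED23 were grown for 14 days in vemurafenib. Each library of the MED23 knockout screen was scaled to its total and expressed in CPM (the usual counts-per-million scale), and the 100 guides with the highest mean CPM over the 3 vemurafenib libraries were taken from the 12214 guides of an epigenetic library. The members were thus chosen by the vemurafenib counts of these cells, so their levels there, and their difference from DMSO or day 0, are described and not tested. The library names 10 guides for each gene, and guides against the same gene share a target and are not replicates of each other. Guides that name no gene are CTRL, AAVS1 (a safe-harbour site) and Zhang guides, which are treated as controls by name, and the labels do not say what the Zhang guides target. Guide sequences were not used here.

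A375 cells come from a melanoma that carries mutant BRAF, and vemurafenib inhibits the mutant BRAF kinase. The 100 guides were read in 2 epigenetic-library screens and their target genes in a whole-genome screen. MED23 knockout cells carrying the epigenetic library were sampled at day 14 in 1 µM vemurafenib, at day 14 in DMSO and at day 0. MED12 knockout cells carrying the same library were sampled in 2 µM vemurafenib and in DMSO, each at days 8 and 14, and at day 0. MED12 knockout cells carrying a whole-genome library had the same design, and each group held 3 libraries. Doses and knockouts differ between the screens, so levels in MED23 and MED12 knockout cells are set side by side and the difference between them was not tested. The labels give no clone, no sequence check of the knockouts, and no statement that replicates were infected or cultured separately, so p-values measure the spread between these libraries, which may be technical.

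Vemurafenib stops the growth of cells that depend on mutant BRAF, and in a pooled screen a guide gains reads when the cells that carry it outgrow the rest. Loss of brakes on RAS signalling, such as NF1, and of Hippo pathway components, such as NF2, is known to let BRAF-mutant melanoma cells grow in BRAF inhibitors. CUL3 is the scaffold of ubiquitin ligases that include the KEAP1 complex, which holds down the antioxidant factor NRF2. Mediator links transcription factors to RNA polymerase II, MED12 belongs to its detachable kinase module, and SAGA is a coactivator that acetylates histones.

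The MED23 knockout libraries held 22.8 to 29.0 M counts, those of the MED12 knockout epigenetic screen 16.4 to 20.8 M counts and those of the whole-genome screen 47.8 to 87.6 M counts. No molecular identifiers are mentioned, so PCR reads are not independent molecules and intervals cover counting error only. Replicate numbers of the MED12 knockout screens matched between groups. In the MED23 knockout screen DMSO libraries 1 and 2 instead varied together with libraries 2 and 1 of the other groups. Deviations from the group mean over all guides had r = 0.32 for vemurafenib library 1 with DMSO library 2, 0.29 for vemurafenib 2 with DMSO 1 and 0.30 for vemurafenib 3 with DMSO 3, against -0.15 for vemurafenib 1 with DMSO 1 and -0.15 for vemurafenib 2 with DMSO 2. Group membership is unaffected by that numbering, and libraries are named by the label number below.

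The 100 guides held 37.2%, 52.7% and 47.0% of the reads in vemurafenib libraries 1, 2 and 3 of MED23 knockout cells. They held 1.61%, 1.64% and 1.72% in the DMSO libraries and 1.16%, 1.09% and 1.09% at day 0. The 95% Wilson intervals of the vemurafenib shares were 37.2% to 37.3%, 52.7% to 52.8% and 46.9% to 47.0%, so counting error was small beside the spread between libraries. Evenness of the pool, given as the effective number of guides (inverse Simpson index), was 99.3, 43.9 and 35.7 in the vemurafenib libraries, against 6207, 6245 and 6259 in DMSO and 9146, 9218 and 9212 at day 0. Guides that together held 50% of the reads numbered 475, 33 and 104 in the vemurafenib libraries, against 2391 to 2405 in DMSO and 3604 to 3635 at day 0. CPM is a share of a library, so a guide outside the 100 had less of the pool left to it: the median guide had 35.4, 25.8 and 28.6 CPM in vemurafenib, 60.2 to 61.0 CPM in DMSO and 71.8 to 72.2 CPM at day 0.

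The members fall into 3 kinds by target. There were 44 guides against 11 genes that had at least 2 members, 36 guides against 36 genes that had 1 member, and 20 control guides. Genes with several members were CUL3 (9 of its 10 guides), NF1 (6), MED12, NF2 and TADA2B (5 each), MED19 and TADA1 (3 each), and SMARCA4, TAF5L, SMARCD1 and ZFHX3 (2 each). The 44 guides held 25.6%, 35.5% and 36.9% of the reads of the 3 vemurafenib libraries. Guides of genes with 1 member held 8.81%, 16.3% and 8.16%, and control members held 2.83%, 0.983% and 1.89%. BRAF, the target of the drug, had no guide among the 100.

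The members differed in how evenly the 3 vemurafenib libraries carried them. For 65 members the highest library was at least 3 times the next one, and for 48 it was at least 10 times the next one. Below, carried by a single library means only that ratio of at least 3. Of the 65, 11 still lay above every DMSO and day-0 library in all 3 vemurafenib libraries, NF2_7 and SUPT20H_4 among them. The 65 were 15 of the 44 guides of genes with several members, 32 of the 36 guides of genes with 1 member and 18 of the 20 controls. Library 1 was the high one for 16 of the 65, library 2 for 19 and library 3 for 30. For 41 members all 3 vemurafenib libraries lay above every DMSO and day-0 library (36 of the 44, 5 of the 36 and 0 of the 20 controls), against 0.688% of all guides. The members were chosen on these vemurafenib levels, so nothing is read from that count or its split. The rank correlation of member CPM between vemurafenib libraries ran from 0.15 to 0.22 over all 100 members, as a description in which the guides share libraries.

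Ranking each vemurafenib library alone gave lists of 100 guides that shared 33 guides for libraries 1 and 2, 28 for libraries 1 and 3 and 28 for libraries 2 and 3. All 3 lists held 26 guides, each of them a member, and the lists covered 237 guides together. Choosing 100 guides from only a pair of the vemurafenib libraries leaves the third free of the choice. The guides so chosen held 27.0% of the reads of library 1, 35.9% of library 2 and 36.2% of library 3, with 30, 32 and 29 of them among that library's own 100 highest. Their median level in the library left out was 150.1, 129 and 123 CPM, against a median of 35.4, 25.8 and 28.6 CPM over all guides. Of the 100, 55, 45 and 46 stood above every day-0 library there, against 8.65%, 4.76% and 5.20% of all guides in the same libraries. The controls so chosen numbered 15, 21 and 19, of which 7, 2 and 4 stood above every day-0 library in the library left out, against 24.8%, 10.3% and 11.7% of all controls.

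Guides against CUL3 carried the largest part of the pool. CUL3_10 was the most abundant guide of each vemurafenib library, with 66128, 96749 and 151768 CPM, or 6.61%, 9.67% and 15.2% of the reads. The same guide had 310.1, 202 and 553 CPM in DMSO and 100.9, 101.1 and 116 CPM at day 0. The 9 CUL3 members together held 15.9%, 24.0% and 26.4% of the 3 vemurafenib libraries, and every member stood above all 6 other libraries in all 3. None was carried by a single library, and the median coefficient of variation over the 3 libraries was 0.319, against 1.31 over all 100 members.

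The CUL3 members spread over a wide range of levels. CUL3_4 had 14674, 36521 and 43202 CPM in vemurafenib, 304, 297 and 408 CPM in DMSO and 163, 115 and 136 CPM at day 0. CUL3_1, CUL3_9, CUL3_8, CUL3_5, CUL3_3 and CUL3_7 had mean vemurafenib levels of 20557, 19098, 14590.5, 10407, 9922 and 6116 CPM. The lowest member was CUL3_6, at 4297, 3411 and 4727 CPM in vemurafenib, 77.0, 101.1 and 95.8 CPM in DMSO and 54.0, 45.2 and 52.9 CPM at day 0. CUL3_2 was the 1 CUL3 guide outside the 100, at 78.6, 27.5 and 43.5 CPM in vemurafenib. That its mean was below those of the 9 members follows from the choice. KEAP1, a substrate adaptor of CUL3, had 1 member, KEAP1_9, at 191, 362 and 2101 CPM in vemurafenib, 57.7, 64.2 and 161 CPM in DMSO and 108, 94.9 and 122 CPM at day 0. Library 3 was high for it, and its other 9 guides had mean levels of 43.6 to 509 CPM in vemurafenib. NFE2L2 (NRF2) and SPOP, the other listed genes of this ligase group in the library, had no member, and neither did CUL1, CUL2, CUL4A, CUL4B, CUL5, FBXO11, FBXW7 or VHL.

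NF2, an upstream regulator of the Hippo pathway, had 5 members that held 3.90%, 7.68% and 4.69% of the reads. NF2_6 had 22752, 27623 and 32743 CPM in vemurafenib, 389.8, 509.6 and 356 CPM in DMSO and 129.5, 76.5 and 69.6 CPM at day 0. NF2_7 had 11756, 42285 and 8643 CPM in vemurafenib, 687, 493 and 379.6 CPM in DMSO and 229, 129.5 and 121 CPM at day 0. For both, all vemurafenib libraries were above all others, and library 2 was the high one for NF2_7. NF2_9 and NF2_2 had means of 4448 and 596 CPM, and the lowest, NF2_4, had 198, 174 and 1413 CPM in vemurafenib, 38.1, 38.4 and 36.3 CPM in DMSO and 13.3, 16.9 and 26.1 CPM at day 0. The 5 NF2 guides outside the 100 had mean vemurafenib levels of 23.2 to 61.4 CPM, with 0 of 5 above their day-0 mean. The members lie above them by the choice, so that order is a description. The lowest NF2 member mean was 595 CPM. STK4, a Hippo kinase, had 1 member, STK4_10, which was high in library 2 alone (47.0, 1526 and 33.7 CPM in vemurafenib).

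NF1, which switches RAS off, had 6 members that held 2.85%, 1.10% and 0.983% of the reads. NF1_7 was the most abundant, at 21513, 517 and 1202 CPM in vemurafenib, 91.7, 151 and 111 CPM in DMSO and 76.0, 80.5 and 84.3 CPM at day 0, and library 1 was high. NF1_4 had 1278, 3362 and 3236 CPM and NF1_1 had 2957, 2677 and 2009 CPM in vemurafenib, with library 1 the lowest for NF1_4 and library 3 for NF1_1. NF1_6 and NF1_9 averaged 1906 and 1047 CPM. The lowest member, NF1_8, was the rarest of them before selection, at 1027, 626 and 115 CPM in vemurafenib, 23.3, 11.7 and 8.66 CPM in DMSO and 12.6, 13.0 and 8.07 CPM at day 0. Of the 4 NF1 guides outside the 100, 3 stood above their day-0 mean, and NF1_3 was among the 5 guides just outside the limit.

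Mediator genes gave 9 members of 30 guides, although the cells already lacked a Mediator subunit. MED12 had 5 members with 0.871%, 1.23% and 2.05% of the reads. MED12_5 had 2922, 6375 and 8479 CPM in vemurafenib, 15.7, 13.1 and 46.5 CPM in DMSO and 119, 146 and 126 CPM at day 0, so its DMSO libraries were the lowest of the 3 groups. MED12_2, MED12_4 and MED12_10 averaged 2861, 2533 and 1266 CPM in vemurafenib, and the lowest member, MED12_8, had 421, 555 and 2812 CPM there, 85.7, 100.02 and 133 CPM in DMSO and 135, 124 and 143 CPM at day 0. All 5 stood above every DMSO and day-0 library in all 3 vemurafenib libraries. Of the 5 MED12 guides outside the 100, 4 stood above their day-0 mean. MED19, another Mediator subunit, had 3 members of which MED19_3 was even between libraries (738, 1118 and 552 CPM in vemurafenib, 46.5, 46.5 and 26.5 CPM in DMSO and 172, 179.9 and 158 CPM at day 0). The highest, MED19_9 (163, 175 and 9175 CPM), and the lowest by rank, MED19_10 (43.4, 2217 and 34.9 CPM), were each high in 1 vemurafenib library. CDK8, which phosphorylates within the MED12 module, had 1 member, CDK8_3, which was high in library 2 (203, 1233 and 202 CPM).

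SAGA genes gave 13 members of 160 guides of the acetyltransferase and core list, from TADA2B, TADA1, TAF5L, SUPT20H, TAF6L and CCDC101 (SGF29). Apart from SUPT20H_4 they had mean levels of at most 2002 CPM in vemurafenib. TADA2B_8, the highest of the 5 TADA2B members, had 658, 1226 and 705 CPM in vemurafenib, 8.40, 31.9 and 24.5 CPM in DMSO and 81.9, 67.5 and 63.7 CPM at day 0. TADA2B_1, TADA2B_4 and TADA2B_9 averaged 746, 736 and 604 CPM, while the lowest, TADA2B_5, was high in library 3 (145, 196 and 1264 CPM). The 5 TADA2B guides outside the 100 all stood above their day-0 mean, at 91.2 to 469 CPM, so all 10 guides of the gene had a higher mean in vemurafenib than at day 0. Over all guides the median was 0.462 times the day-0 level. The 5 members were chosen for high vemurafenib levels, so the count over 10 guides is a description. TADA1_10 and TADA1_6 had 2639, 1522 and 1845 CPM and 1481, 1433 and 1297 CPM in vemurafenib, and the lowest, TADA1_9, was high in library 3 (239.6, 301 and 2249 CPM).

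TAF5L_3 and TAF5L_10, the 2 TAF5L members, had 883, 1041 and 303 CPM and 874, 479.5 and 507 CPM in vemurafenib, against 18.3, 9.83 and 29.3 CPM and 9.72, 19.5 and 30.8 CPM in DMSO. SUPT20H_4 was the most abundant SAGA guide, at 16138, 3513 and 4218 CPM in vemurafenib, 50.5, 89.2 and 62.8 CPM in DMSO and 323, 329 and 327 CPM at day 0. All 3 vemurafenib libraries carried it above every other library, and library 1 was high. TAF6L_10 and CCDC101_9 averaged 767 and 571 CPM. The 40 guides of the deubiquitinase module (ATXN7, ATXN7L3, ENY2 and USP22) gave 0 members, and of the acetyltransferases of the complex neither KAT2A nor KAT2B gave any.

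The BAF and PBAF chromatin remodellers gave 7 members of 200 guides, and each of the 7 was carried by a single library. SMARCA4_4, against the ATPase of the complex, had 6888, 41.6 and 55.8 CPM and SMARCA4_10 had 97.2, 1858 and 26.2 CPM in vemurafenib, so the 2 guides of this gene were high in different libraries. SMARCD1_2 had 138, 119 and 3787 CPM and SMARCD1_5 had 3279, 21.2 and 26.5 CPM, high in libraries 3 and 1. SMARCB1_9, DPF2_8 and SMARCC2_5 were high in libraries 2, 1 and 3. ZFHX3, a homeobox transcription factor, had ZFHX3_1 (115, 367 and 2396 CPM) and ZFHX3_4 (75.3, 49.2 and 1605 CPM), both high in library 3. Polycomb (170 guides), MLL and COMPASS (180), H3K9 silencing (100), RNA adenosine methylation (30), the list of CREBBP, EP300 and KAT genes (70) and the TGF-beta genes SMAD2, SMAD3 and SMAD4 (30) gave 0 members.

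For most genes with 1 member (32 of 36), that guide was carried by a single library. The widest gap was ALDH6A1_7, against an enzyme of valine breakdown, at 49170.2, 28.5 and 36.8 CPM in vemurafenib, 128, 126 and 105.7 CPM in DMSO and 95.2, 77.9 and 80.4 CPM at day 0. Its highest library was 1335 times the next, and the other 9 ALDH6A1 guides had 27.1 to 65.3 CPM in library 1. CEBPA_7, against a myeloid transcription factor, had 51.5, 75612 and 73.0 CPM in vemurafenib and 209, 154 and 168 CPM in DMSO, while the other 9 CEBPA guides had 8.73 to 98.1 CPM in library 2. That guide alone held 7.56% of library 2 and was the fourth guide by mean level. DPF2_8 (10115, 4.78 and 10.6 CPM) had a ratio of 955 between its highest library and the next, and CDK12_8 (48.5, 26869 and 73.9 CPM), against a kinase of the RNA polymerase II tail, had one of 364.

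Among the other members with the widest gaps were histone guides. HIST1H4E_9 had 42.4, 51.2 and 16886 CPM and H2AFJ_1 had 81.1, 25622 and 72.4 CPM in vemurafenib, with 129.7, 123 and 156 CPM and 243, 152 and 213 CPM in DMSO. PWWP2B_5 had 81.4, 49.6 and 17966 CPM, Zhang_514 had 10927, 24.6 and 71.6 CPM and SMARCB1_9 had 105.3, 11246 and 27.6 CPM in vemurafenib. In the other libraries these guides had at most 105.3 CPM in vemurafenib. Guides of genes with 1 member that were high in library 1 were against ALDH6A1, SUPT20H, DPF2, CDKN1B, APOBEC3H and USP18. Library 2 was high for CEBPA, CDK12, H2AFJ, SMARCB1, PRKAG2, PRMT9, PRDM8, SIAH1, SKP1, CDK8, UBE2K and STK4. Library 3 was high for PWWP2B, HIST1H4E, EEF2KMT, PLCG1, FRK, MAP2K4, CUX1, KEAP1, UCHL5, NAT2, CCDC101, SMARCC2, STAT3 and ZRANB3. Of these guides, SUPT20H_4, KEAP1_9, CDK8_3 and CCDC101_9 still lay above every DMSO and day-0 library in all 3 vemurafenib libraries. The 4 guides of genes with 1 member not carried by a single library were NOTCH1_1, TAF6L_10, APOBEC3A_10 and RB1_9. RB1, the retinoblastoma brake on the cell cycle, had 7 of its other 9 guides above their day-0 mean. CCDC101 and TAF6L had 6 of 9, KEAP1 and CDKN1B 5 of 9, and the remaining genes with 1 member at most 4 of 9.

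Control guides made up 20 of the 100, from 1064 in the library. That is 1.88% of the controls, against 0.717% of the 11150 guides that name a gene. By name these were 11 of 714 Zhang guides, 6 of 267 AAVS1 guides and 3 of 83 CTRL guides. The highest, Zhang_514, reached 10927, 24.6 and 71.6 CPM in vemurafenib, 64.4, 211 and 111 CPM in DMSO and 74.3, 62.5 and 61.2 CPM at day 0. AAVS1_147 was the highest AAVS1 guide (57.8, 52.0 and 4133 CPM in vemurafenib, 158, 182 and 341 CPM in DMSO). CTRL0085 was the highest CTRL guide (1977, 44.2 and 83.5 CPM in vemurafenib, 156, 112 and 124 CPM in DMSO).

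In the other control members the high library was 1 for Zhang_532, Zhang_690, AAVS1_259, Zhang_591 and Zhang_107. It was library 2 for Zhang_847, AAVS1_156, Zhang_36 and AAVS1_173, and library 3 for Zhang_540, AAVS1_2, AAVS1_51, Zhang_55, Zhang_735 and CTRL0021. CTRL0020 and Zhang_932 were less uneven, at 957, 272 and 378 CPM and 653, 76.0 and 869.7 CPM in vemurafenib. No control member was above all DMSO and day-0 libraries in all 3 vemurafenib libraries. All controls of the library together held 13.7%, 9.32% and 11.1% of the reads in the vemurafenib libraries, 20.4% to 20.7% in DMSO and 11.0% to 11.2% at day 0. A control guide had at least 1000 CPM in some vemurafenib library for 24 guides, or 2.26% of the controls, against 0.861% of gene guides.

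The limit at rank 100 was shallow. Just inside it, ranks 96 to 100 were ZRANB3_7, CTRL0020, STK4_10, TADA2B_5 and Zhang_932, with mean levels of 537, 536, 535, 535 and 533 CPM. Just outside, the next 5 were Zhang_15, SMARCD2_6, RPL31_7, EID2B_4 and NF1_3, at 529, 526, 519, 517 and 511 CPM. NF1_3 had 719, 319 and 494 CPM in the 3 vemurafenib libraries, and the other 4 guides outside were each high in 1 library.

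The libraries in which single guides ran high were compared with the libraries of the other groups. Of the 16 members carried by vemurafenib library 1, 13 had their highest DMSO level in DMSO library 2. Of the 19 carried by vemurafenib library 2, 13 were highest in DMSO library 1, and of the 30 carried by vemurafenib library 3, 24 were highest in DMSO library 3. These 50 of 65 members (76.9%) compare with 44.1% of all guides for the same match of libraries, which is the match given above by the deviations of all guides. At day 0, where libraries match by number, 28 of the 65 (43.1%) were highest in the library of the same number, against 45.1% of all guides. SMARCD1_5, for example, had 3279, 21.2 and 26.5 CPM in vemurafenib and 15.4, 277 and 18.6 CPM in DMSO. USP18_5 had 1585, 18.7 and 15.9 CPM in vemurafenib and 62.6, 251 and 63.6 CPM in DMSO. Whether the matched libraries came from a shared infection or flask was not tested.

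Growth without the drug was tested as DMSO at day 14 against day 0 in MED23 knockout cells. The choice did not rank these libraries. Matched DMSO libraries varied together with the vemurafenib libraries of the choice, as given above. The members' DMSO levels, and the counts of called members below, are therefore not free of the choice. In the fit to all 9 libraries, the members that fell in DMSO were guides against SAGA genes, MED12 and MED19. Another fit, given below, called further guides lower. With edgeR's quasi-likelihood test on all 9 libraries and Benjamini-Hochberg adjustment over all guides, 11 of the 100 members fell and 2 rose. Over all 12214 guides 21.8% fell and 14.4% rose. The members' lower shares are not read as a result, since this fit takes its spread also from the vemurafenib libraries of the choice. A fit without those libraries, given below, called 50 of the 100 members higher and 18 lower (21.4% and 23.8% of all guides). In that fit 847 of all 1064 controls rose too.

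The members that fell in the fit to all 9 libraries were TADA2B_1, TADA2B_4, TADA2B_8 and TADA2B_9, TAF5L_3 and TAF5L_10, TADA1_6 and TADA1_10, SUPT20H_4, MED12_5 and MED19_3. TADA2B_9 had 5.47, 11.6 and 21.8 CPM in DMSO against 60.0, 64.8 and 72.9 CPM at day 0, a log2 fold change of -2.21 ± 0.49 (SE, edgeR adjusted p = 0.00671). TAF5L_10 changed by -2.19 ± 0.41 (SE, edgeR adjusted p = 0.00316) and TADA2B_4 by -1.78 ± 0.32 (edgeR adjusted p = 0.00248). MED19_3 fell by 1.96 on the log2 scale (SE 0.41, edgeR adjusted p = 0.00493). SUPT20H_4 fell by 2.14 (SE 0.66, edgeR adjusted p = 0.0299) and MED12_5 fell by 2.24 (SE 0.72, edgeR adjusted p = 0.0343). In every one of these 11 guides the 3 DMSO libraries lay below the 3 day-0 libraries. The 11 were listed because they were called, so this describes them and adds no further result.

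RB1_9 rose, at 349.8, 194 and 269 CPM in DMSO against 88.5, 93.9 and 80.2 CPM at day 0 (log2 fold change 1.76 ± 0.55, edgeR adjusted p = 0.0307). CTRL0020 rose too, at 1036, 1144 and 756 CPM in DMSO against 445, 399 and 396 CPM at day 0 (log2 fold change 1.38 ± 0.41, edgeR adjusted p = 0.0257). Controls rose as a class in this fit: 712 of all 1064 rose and 12 fell, with a median of 1.09. With the libraries scaled on control guides, which shifts the median of all guides to -0.95 from 0.08, neither RB1_9 (0.73) nor CTRL0020 (0.35) passed. There 0 members rose (0.0573% of all guides) and 17 fell (56.6% of all guides). At an unadjusted p under 0.05 also 0 members rose. Each library left out changed the counts of the fit with library-wide scaling. Without day-0 library 1, 2 or 3, 0 members rose and 6, 6 and 5 fell. Without DMSO library 1, 2 or 3, 0, 1 and 1 rose and 5, 8 and 8 fell. The shares of all guides in these fits are not given, so the counts are not read as a change in the members.

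This fit shares its spread with the vemurafenib libraries, in which the members were chosen for high and mostly uneven counts. A fit to the 6 DMSO and day-0 libraries only, added after the data had been seen, gave the same median log2 fold change over the members (0.66) and called 50 members higher and 18 lower in DMSO (21.4% and 23.8% of all guides). DESeq2 on all 9 libraries called 11 higher and 12 lower (21.4% and 25% of all guides), and all 11 members that fell with edgeR were among the 12. It gave no p-value for some members with 1 very high vemurafenib library, CEBPA_7, ALDH6A1_7 and CDK12_8 among them. Its counts thus do not cover all 100 members and are not comparable with the shares of all guides. With the replicate number as a block, 2 rose and 12 fell (13.6% and 22.1%). In the fit to 6 libraries CUL3_10 rose by 1.87 ± 0.33 (SE, edgeR adjusted p = 0.00305) and NF2_6 by 2.32 ± 0.26 (SE, edgeR adjusted p = 0.00049), against adjusted p of 0.274 and 0.0531 in the fit to all libraries. Of the 50, 14 were guides of genes with several members, 18 of genes with 1 member and 18 were controls. The 18 lower members included SMARCD1_2, FRK_3, UCHL5_4 and the control AAVS1_156, besides guides against SAGA genes, MED12 and MED19. In the same fit 847 of all 1064 controls rose and 20 fell. With control scaling as well, 6 members rose (CUL3_10, NF2_6, NF2_7, RB1_9, Zhang_532 and Zhang_932; 0.442% of all guides) and 35 fell (62.7%). All 11 members that fell in the fit to all libraries also fell in both of these fits.

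The growth values split by target. The median log2 fold change in DMSO over the members was 1.36 for CUL3, 1.13 for NF2, 0.69 for NF1 and 1.26 for the 20 controls. It was -0.86 for MED12, -0.89 for MED19, -1.40 for TADA1, -1.73 for TADA2B and -2.06 for TAF5L. Among the SAGA genes with 1 member, TAF6L_10 went the other way, at 0.42 ± 0.56 (SE, edgeR adjusted p = 0.58), and CCDC101_9 was at -2.20 ± 0.94 (SE, edgeR adjusted p = 0.0928). Of all 160 guides of the SAGA acetyltransferase and core list, 68 fell and 5 rose with a median of -0.69, and of the 40 deubiquitinase guides, none of them a member, 22 fell and 2 rose with a median of -0.96. Over all 100 members the median was 0.66, against 0.08 over all guides, and with control scaling it was -0.37 against -0.95. These medians are a description, since DMSO libraries varied together with the vemurafenib libraries of the choice. Every member of CUL3 and NF2 was above 0 with the library-wide scaling, but with control scaling 5 of 9 and 3 of 5 were, and the medians were 0.33 for CUL3, 0.10 for NF2 and -0.34 for NF1. The 20 control members had a median of 0.23 with control scaling, and 17 of them were above 0. Every member of MED12, MED19, TADA1, TADA2B and TAF5L was below 0 under both scalings.

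In MED12 knockout cells the same 100 guides held a small share of the pool. It was 1.86%, 1.82% and 2.53% of the reads at day 14 of 2 µM vemurafenib and 1.43%, 1.38% and 1.66% at day 14 of DMSO. At day 8 they held 1.46%, 1.42% and 1.62% in vemurafenib and 1.33%, 1.30% and 1.42% in DMSO, and at day 0 1.16% to 1.17%. The 100 highest guides of those vemurafenib libraries at day 14 held 12.9%, 14.2% and 11.6% of the reads, and 8 of the 100 members were among the 100 highest there by mean CPM. These were NF1_4, NF1_9, NF2_4, NF2_6, NF2_7, NF2_9, RB1_9 and CDKN1B_3.

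Vemurafenib against DMSO at day 14 in MED12 knockout cells raised 1 member past the threshold with edgeR's quasi-likelihood test and lowered 0 (Benjamini-Hochberg over all guides; 0.0409% of all guides rose and 0.00819% fell). At an unadjusted p under 0.05 there were 14 higher and 1 lower, and DESeq2 called 8 higher and 0 lower (0.753% and 0.344%). The member was NF1_8, at 130.2, 113 and 141 CPM in vemurafenib, 11.0, 15.5 and 6.70 CPM in DMSO and 21.6, 26.9 and 22.7 CPM at day 0. Its log2 fold change was 3.81 ± 0.40 (SE, n = 3 libraries each, edgeR adjusted p = 0.00144), and the groups did not overlap. Leaving out 1 library gave 2 called members without DMSO library 1, 4 without vemurafenib library 1 and 2 without vemurafenib library 3, and NF1_8 passed each time. The shares of all guides in these fits are not given, so nothing is read from the counts.

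Since replicate numbers pair the MED12 knockout libraries, the number was also fitted as a block, which called 6 members higher and 0 lower (0.319% and 0.115% of all guides, 4 members lower at an unadjusted p under 0.05). NF1_4 had 937, 342 and 364 CPM in vemurafenib against 85.0, 15.8 and 22.8 CPM in DMSO (log2 fold change 4.19 ± 0.34 with the block, SE, edgeR adjusted p = 0.000155; 0.0703 without). NF1_1, NF1_6 and NF1_7 passed with edgeR adjusted p of 0.00333, 0.0188 and 0.00843. SMARCB1_9 had 81.9, 506 and 516 CPM in vemurafenib against 53.4, 49.8 and 115 CPM in DMSO (edgeR adjusted p = 0.0366 with the block). NF1_9, the sixth NF1 member, had 19.6, 7.54 and 1739 CPM in vemurafenib against 3.54, 11.4 and 154 CPM in DMSO and did not pass (edgeR adjusted p = 0.281 with the block), and library 3 alone was high. DESeq2 called NF2_7 and SUPT20H_4 besides these 6.

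By target, the 6 NF1 members had a median log2 fold change of 3.38 in vemurafenib against DMSO, each of them above 0. The 5 NF2 members had a median of 1.46, all above 0 and none past edgeR's threshold. NF2_7 had 1597, 3578 and 1155 CPM in vemurafenib against 1153, 743 and 499.6 CPM in DMSO (edgeR adjusted p = 0.306). The 9 CUL3 members had a median of 0.78, with 7 of 9 above 0 and none past the threshold. CUL3_10, the guide that led every vemurafenib library of MED23 knockout cells, had 96.5, 42.7 and 19.4 CPM in vemurafenib, 34.3, 7.04 and 12.1 CPM in DMSO and 37.0, 48.5 and 53.9 CPM at day 0 (log2 fold change 1.86 ± 0.72, SE, edgeR adjusted p = 0.617), and its groups overlapped. CUL3_8 was rare there, at 22.2, 0.623 and 34.3 CPM in vemurafenib and 11.2, 9.45 and 16.2 CPM at day 0.

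The SAGA members had a median of 0.93, with values of 0.98 for TADA2B, 0.21 for TAF5L and 0.07 for TADA1, and none passed edgeR's threshold. The 5 MED12 members, which aim at a gene these cells already lack by their label, had a median of -0.27 with 1 of 5 above 0, and MED12_5 had 102.5, 148 and 139 CPM in vemurafenib against 124, 162 and 135 CPM in DMSO. MED19 members had a median of 0.28. Over all members the median was 0.30, against 0.08 over all guides, and over the 20 control members it was 0.07. The 65 members whose highest vemurafenib library in the MED23 knockout screen was at least 3 times the next had a median of 0.24, and the 35 others 0.78. The 10 guides with the widest gaps there did not pass, at log2 fold changes of -0.25 for ALDH6A1_7, 0.20 for CEBPA_7, -1.20 for DPF2_8, 0.16 for CDK12_8, -0.86 for HIST1H4E_9, -0.18 for H2AFJ_1, 0.06 for PWWP2B_5, 0.15 for Zhang_514, 0.69 for SMARCD1_5 and 0.24 for SMARCA4_4. SMARCB1_9, next in that order with a ratio of 107, was at 2.63 and passed with the block and with DESeq2, as given above.

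At day 8 vemurafenib against DMSO called 0 members in either direction with edgeR's quasi-likelihood test (0% of all guides), with 4 higher and 0 lower at an unadjusted p under 0.05. DESeq2 called 1, NF1_8, at 66.5, 84.8 and 85.1 CPM in vemurafenib against 16.3, 29.4 and 19.3 CPM in DMSO, which did not overlap. The median at day 8 was 1.43 for the NF1 members and 0.10 for all 100. The vemurafenib effect at day 14 minus that at day 8 gave 0 called members with edgeR and 0 with DESeq2 (0% of all guides), with 3 higher and 0 lower at an unadjusted p under 0.05 in edgeR. The median of that difference was 1.88 for the NF1 members and 0.21 for all members, against 0.07 over all guides.

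Growth of MED12 knockout cells in DMSO raised 3 members at day 14 against day 0 and lowered 0 with edgeR (1.13% and 1.14% of all guides; 24 higher and 0 lower at an unadjusted p under 0.05; 13 higher and 0 lower with DESeq2, against 4.18% and 4.7% of all guides). NF2_7 had 1153, 743 and 499.6 CPM in DMSO against 181, 165 and 171 CPM at day 0 (log2 fold change 2.69 ± 0.44, SE, edgeR adjusted p = 0.01). CDKN1B_3, against the cell-cycle inhibitor p27, had 367, 262 and 747 CPM in DMSO against 115, 114 and 119 CPM at day 0 (2.44 ± 0.50, edgeR adjusted p = 0.0284). RB1_9 had 1512, 879 and 1444 CPM in DMSO against 352, 288 and 351 CPM at day 0 (2.42 ± 0.34, edgeR adjusted p = 0.00399). The groups did not overlap for any of these 3 guides, which were listed because they were called. All 3 also rose with control scaling (0.45% of all guides rose and 3.2% fell), under which the median of all guides was -0.24 instead of 0.18. Without day-0 library 1, 2 or 3 only RB1_9 passed. Without DMSO library 1, 5 members passed, and without DMSO library 3 CDKN1B_3 did not (edgeR adjusted p = 0.0708). Here too the shares of all guides are not given, so the counts are not read as a change in the members.

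With the replicate block 14 members rose and 0 fell (4.91% and 7.85% of all guides; 4 lower at an unadjusted p under 0.05). These were all 5 NF2 members, CUL3_1, MED12_5, MED12_8, SMARCA4_4, SMARCA4_10, KEAP1_9, CDKN1B_3, RB1_9 and Zhang_36. SMARCA4_10 had 61.9, 199 and 113 CPM in DMSO against 26.3, 52.2 and 44.8 CPM at day 0 (log2 fold change 1.98 ± 0.24 with the block, SE, edgeR adjusted p = 0.000691; 0.0542 without). Members against TADA2B, TAF5L and TADA1, of which 8 of 10 fell in DMSO in MED23 knockout cells, had none called in MED12 knockout cells, with medians of 0.50, -0.74 and -0.10 (0.09, -1.16 and -0.53 with control scaling). The difference between the knockouts was not tested. The NF2 members had a median of 2.07 without the block and 1.83 with it.

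The whole-genome library names 4 guides for each of the same target genes. A guide name there, such as NF2_2 or NF2_4, need not denote the guide of the same name in the epigenetic library. Sequences were not compared, so overlap between the sets of guides is not known. The whole-genome library held 46 of the 47 target genes, with 184 guides that passed the filter on low counts, and CDK8 was not matched. Vemurafenib against DMSO at day 14 in MED12 knockout cells called 0 of the 184 in either direction with edgeR's quasi-likelihood test (0% of all 77158 guides tested), with 4 higher and 3 lower at an unadjusted p under 0.05. DESeq2 called 0 higher and 1 lower, CDK12_1 (0.174% and 0.184% of all guides). That guide was near the floor, at 0, 0 and 0 CPM in vemurafenib and 0.172, 0 and 2.20 CPM in DMSO. Of the 4 CDK12 guides, 2 were above 0 with edgeR. The replicate block called 0 of the 184 (0% and 0.0013% of all guides), with 13 higher and 6 lower at an unadjusted p under 0.05. The 4 NF1 guides had a median log2 fold change of 2.55 and the 4 NF2 guides of 1.89, with 4 of 4 above 0 for both genes and none past the threshold. Summed over its guides NF2 had 569.5, 613 and 2451 CPM in vemurafenib, 324, 282 and 498 CPM in DMSO and 89.7, 103 and 95.8 CPM at day 0. A single guide held most of each vemurafenib sum: NF2_1 had 375.1, 89.6 and 2398 CPM in vemurafenib and NF2_2 had 139, 498 and 7.78 CPM, while NF2_3 and NF2_4 had 1.86 to 43.3 CPM. The 4 CUL3 guides had a median of 0.11 with 2 of 4 above 0, and summed to 29.8, 29.2 and 11.9 CPM in vemurafenib, 30.7, 22.6 and 27.7 CPM in DMSO and 74.2, 60.6 and 52.0 CPM at day 0. MED12 guides had a median of -0.37. The median over all 184 guides was 0.19, against 0.06 over all guides tested.

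The members started somewhat above the library's median level. Their day-0 mean ran from 11.2 to 413 CPM with a median of 103 CPM in MED23 knockout cells, against a median of 72.2 CPM over all guides, whose range was 6.69 to 568 CPM. The rank correlation between vemurafenib and day-0 mean CPM over the 100 members was 0.06, and that with the DMSO mean was 0.08, as descriptions over guides that share libraries. Over day 0 the members' mean vemurafenib level was 1.30 to 989.6 times as high, with a median of 11.3, which follows from the choice. Among the 100 highest guides of MED23 knockout cells in DMSO 9 were members, and 3 were among the 100 highest at day 0.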

How the data were processed

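Reads were counted per guide in the 3 screens, and the authors deposited raw read counts of each guide in each library. bcl2fastq, HISAT2 and HTSeq are named, per the submitters' processing notes, and the versions, guide reference and filters were not given in the sources used here. Members and gene lists were chosen with earlier results of these data known. CPM was taken over each library's total. Tests used edgeR 4.0.16 in R 4.3.3 (filterByExpr with a minimum count of 10 and a minimum total count of 15, TMM scaling, quasi-likelihood test, Benjamini-Hochberg adjustment over all guides, threshold 0.05) on all libraries of a table, after a test on simulated data. The filter kept 12214 of 12214 guides in both epigenetic tables and 77158 of 77441 in the whole-genome table. DESeq2 1.42.0, other scalings, a replicate block and leaving out each library were alternatives.

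The naming rule took the 10 members with the highest mean CPM, the highest and lowest member of each gene with at least 2, all control, MED12, NF1 and NF2 members, ranks 96 to 105, up to 10 called members per direction, the 10 with the largest ratio between the highest vemurafenib library and the next, and single-member genes by name. Other members were named after their values were seen. Control guides were taken by name, and the sources do not say what Zhang names. Of the 47 target genes, 44 have current symbols and 3 older ones. Replicate numbers pair the MED12 knockout libraries, since same-numbered vemurafenib and DMSO libraries had correlated deviations from the group means (r = 0.712 to 0.771 in the epigenetic screen and 0.819 to 0.826 at day 14 of the whole-genome screen). Library totals give counting errors that are small beside the spread between libraries.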

Additional observations from a re-analysis of the deposited data

How the results depend on the processing

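The count of members past the threshold depended on the fit, and the cause was not tested. For DMSO at day 14 against day 0 in MED23 knockout cells, 11 members rose with DESeq2, which gave no p-value for some members (21.4% of all guides rose). With control scaling 0 rose and 17 fell (0.0573% and 56.6% of all guides). With the 6 DMSO and day-0 libraries only, an alternative chosen after seeing the data, 50 rose and 18 fell (21.4% and 23.8% of all guides). With control scaling added 6 rose and 35 fell (0.442% and 62.7% of all guides). CUL3_6 turned to -0.046 with control scaling and to -0.042 with both changes, neither past the threshold. Leaving out 1 library gave 0 to 1 members that rose and 5 to 8 that fell. Shares of all guides are not given for the fits with a library left out, here or below. Numbers 1 and 2 of DMSO and day 0 do not pair (r = -0.17 and -0.19, against 0.35 for number 3), so the block joins libraries that do not vary together, and with the replicate block 2 members rose and 12 fell (13.6% and 22.1% of all guides); SUPT20H_4 was lost (edgeR adjusted p = 0.0609), and CCDC101_9 and TADA2B_5 were gained.

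In MED12 knockout cells, vemurafenib against DMSO called 1 member higher at day 8 with DESeq2 (0.00819% of all guides). At day 14 DESeq2 called 8 higher (0.753% of all guides) and the replicate block 6 (0.319%), and leaving out 1 library gave 1 to 4. For DMSO at day 14 against day 0, DESeq2 called 13 higher (4.18% of all guides) and the replicate block 14 (4.91%). Leaving out 1 library there gave 1 to 5. Beyond the calls given here and above, the block changed no count of calls by over 1.5 times. DESeq2 called 1 whole-genome guide against the target genes lower in vemurafenib (0.184% of all guides), at levels near the floor. Ranking guides by their lowest vemurafenib library shared 41 of the 100 members, and ranking by fold over DMSO shared 61. Lists chosen without 1 vemurafenib library shared 70 to 81 members, and held 27.0%, 35.9% and 36.2% of the reads of the library left out. Of 172 alternative counts and shares, 137 stayed close to the reported value and 35 moved.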
